A study of Mus musculus with 6 samples.

Results

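Upp1, Tdh and Gcat are 3 mouse genes of small-molecule breakdown, and their RNA was followed here across implantation. They were chosen by symbol, each matched 1 of the 32285 gene rows of the count tables, and earlier results on the same data had put Upp1 and Tdh among genes lower in late epiblast, so the levels below are a description and carry no test. Cells of whole embryos were profiled by droplet single-cell RNA sequencing at 6 stages from embryonic day (E) 3.5 to E5.5. The dams of all embryos were B6SJLF1/J and the sires B6CBAF1/J, with no mutation or drug treatment of the embryos named in the labels. Embryos of the first 2 stages (E3.5, E4.5) were flushed out of dams 4 weeks old, superovulated with PMSG and hCG (gonadotropins), and the E4.75 to E5.5 embryos were dissected from the uterus of naturally mated dams 7 weeks old. The suspensions of E3.5, E4.5 and E5.5 passed a 20 µm filter, while those of E4.75, E5.0 and E5.25 are described without one.

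Upp1 encodes uridine phosphorylase, which splits uridine into uracil and a ribose phosphate that can feed central carbon metabolism. Tdh encodes the mitochondrial threonine dehydrogenase, and Gcat encodes the enzyme that takes the product of Tdh and releases glycine and acetyl-CoA. Mouse embryonic stem cells are known for high threonine dehydrogenase activity, with the glycine feeding one-carbon metabolism, nucleotide synthesis and S-adenosylmethionine.

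In GRCm38 coordinates of GENCODE M21, Upp1 (ENSMUSG00000020407) spans positions 9118103 to 9136170 of chromosome 11, plus strand. Tdh (ENSMUSG00000021953) spans 63492347 to 63509092 of chromosome 14, minus strand, and the antisense gene Gm17232 overlaps it. Gm17232 had between 0 and 22 UMIs per library (a UMI, unique molecular identifier, marks 1 captured RNA molecule), against 125 to 8467 UMIs for Tdh. Gcat (ENSMUSG00000006378) spans 79030874 to 79038353 of chromosome 15, plus strand, and a second annotated locus of the same symbol that overlaps it was not used here. RefSeq promoter windows (GRCm38.p6) were matched for 2 of the 3 genes, Upp1 and Gcat. The 250 bases before the outermost start are shown because Upp1 and Gcat were both higher at E5.5 than at E4.75 in extraembryonic ectoderm, the trophoblast next to the epiblast. Capitals mark matches to a GC box (GGGCGG, which reads CCGCCC on the other strand) and, in Upp1, to an AP-2 motif (GCCNNNGGC).
Upp1 promoter, chr11:9117758-9118007, plus strand: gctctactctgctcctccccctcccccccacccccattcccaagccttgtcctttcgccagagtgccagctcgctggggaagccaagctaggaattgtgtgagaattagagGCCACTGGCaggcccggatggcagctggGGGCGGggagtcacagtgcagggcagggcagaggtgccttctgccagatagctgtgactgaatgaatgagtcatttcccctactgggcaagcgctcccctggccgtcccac
Gcat promoter, chr15:79030624-79030873, plus strand: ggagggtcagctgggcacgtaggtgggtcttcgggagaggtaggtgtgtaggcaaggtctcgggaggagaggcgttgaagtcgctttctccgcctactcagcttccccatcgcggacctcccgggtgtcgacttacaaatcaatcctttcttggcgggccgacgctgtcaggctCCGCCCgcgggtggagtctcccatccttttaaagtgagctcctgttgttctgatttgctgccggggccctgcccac
The Upp1 window was 62.4% G and C and the Gcat window 61.2%, against a median of 52.4% over 32851 windows. The GC box began 111 bases before the outermost start in Upp1 (position -111) and at -76 in Gcat, and it occurred in 32.7% of all windows. The AP-2 motif was at -139 in Upp1, had no match in the Gcat window and occurred in 13.7% of all windows. Upp1 had other starts as well. In its window 9117853 to 9118102, next to the GENCODE start, the same matches lay at -206 (GC box) and -234 (AP-2). Its window 9118257 to 9118506 had neither match and was 52.8% G and C. On both strands no match was found in either window to CACGTG (6.02% of windows), AAGGTCA (4.08%), GGGTGTGG (3.20%), TGACGTCA (1.55%) or AGATAA (9.99%).

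Each stage was 1 library, so no difference between stages has a replicate check and p-values were not computed. After filtering, 20820 of 42328 barcodes were kept, between 88 cells at E3.5 and 8103 at E5.5, with a median depth of 5103 UMIs per cell at E5.5 and up to 31098 at E4.75. Cells were grouped by clustering without the 3 genes or their pathway lists, and clusters were named from fixed markers. A class name therefore means like that cell type by its markers, and the word like is left out below. The classes were epiblast (8 to 10 of 10 markers at least 2-fold above the mean of all groups at every stage), endoderm (12 of 12), parietal endoderm (7 to 10 of 10), blastocyst trophectoderm (9 of 11), extraembryonic ectoderm (9 of 10), ectoplacental cone (4 to 6 of 10) and trophoblast giant cell (5 of 10). The trophoblast classes shared markers: extraembryonic ectoderm at E4.75 also had 9 of 11 trophectoderm markers at 2-fold. Ectoplacental cone had 6 of 11 of them at each stage, and at E5.0 as many extraembryonic ectoderm markers as its own, 4 of 10. Giant cells had 6 of 11 trophectoderm and 5 to 6 of 10 cone markers. Trophectoderm at E4.5 had 8 of 10 extraembryonic ectoderm and 6 of 10 cone markers, and extraembryonic ectoderm had 4 of 10 cone markers at each stage. Parietal endoderm also had 10 to 11 of the 12 endoderm markers, and endoderm had 4 to 6 of the 10 parietal endoderm markers. The epiblast class at E3.5 was cluster 21, inner cells led by Calcoco2, Khdc3 and Dppa3. This group also had 4 of 12 endoderm, 4 of 10 parietal endoderm and 3 of 10 extraembryonic ectoderm markers at 2-fold. Epiblast at E4.5 had 0, 0 and 1 of them, so the E3.5 values are those of inner cells with markers of several classes. Clusters with markers of 2 unrelated classes were left out, 18.1% of cells at E5.5 and at most 2.72% at any other stage. At E5.5 they were cluster 8, 756 cells scoring highest for extraembryonic ectoderm, and cluster 11, 713 cells scoring highest for ectoplacental cone. The kept cells of these classes were 1191 and 710, so the loss fell on trophoblast. Upp1 was 84.0 CPM in cluster 8 and 35.7 CPM in cluster 11 at that stage. Blood markers summed to 0 to 5.05 CPM over the classes and uterine epithelium markers to 14.4 to 662 CPM, highest in E4.75 trophectoderm; their part in the results was not tested. Of all barcodes, 132 occurred in more than 1 library, and 47 among kept cells.

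Levels are given as CPM, the gene's UMIs per 1000000 UMIs of all cells of a class at a stage, with an exact 95% Poisson interval in square brackets. These intervals, and the exact binomial intervals of shares of cells, cover counting error only. In whole libraries Upp1 had 634, 1195, 9566, 7380, 4425 and 4036 UMIs from E3.5 to E5.5. Tdh had 125, 1152, 8467, 5502, 3196 and 2562 UMIs, and Gcat had 50, 757, 6486, 8147, 6531 and 5507 UMIs.

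**Figure D1:**
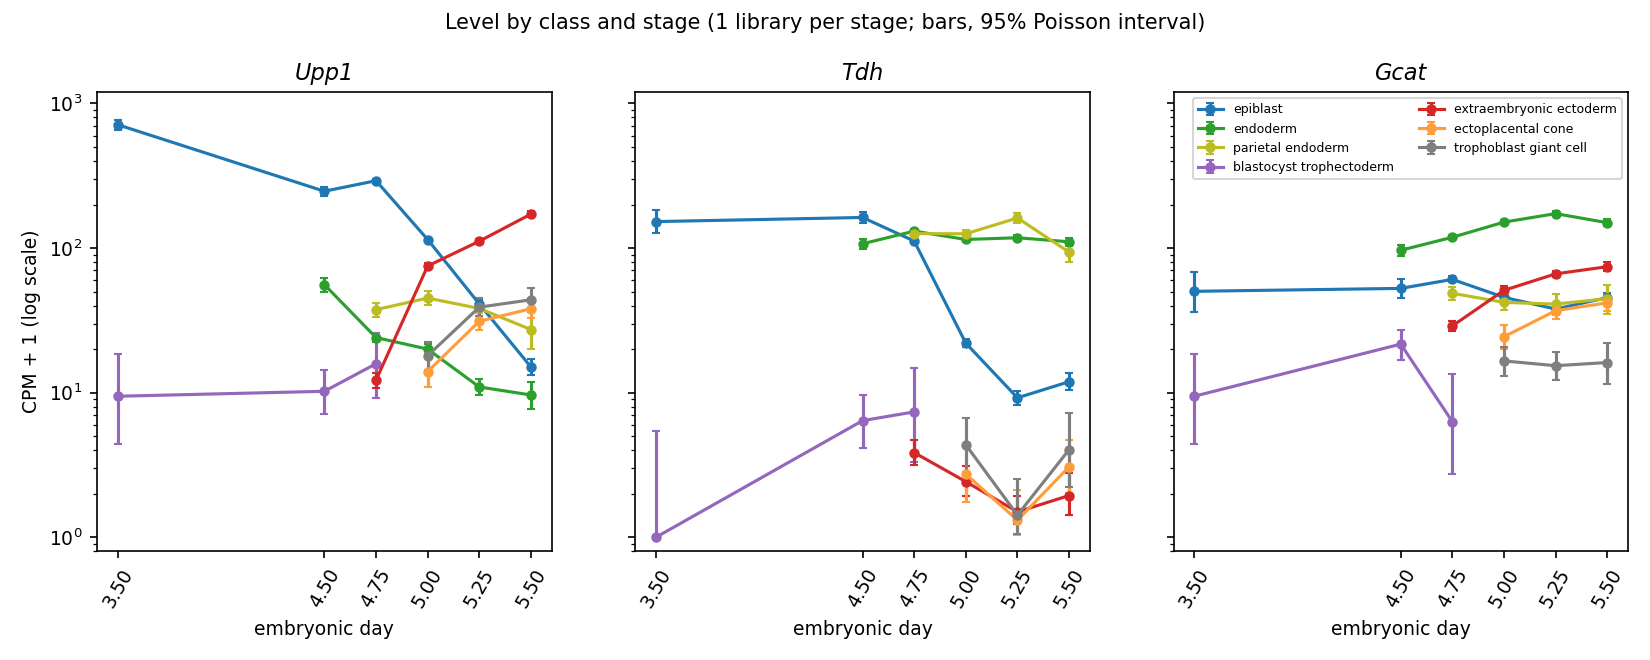
Levels of Upp1, Tdh and Gcat (CPM + 1, log axis) against embryonic day for the 7 classes; points are summed counts of 1 class in 1 library and bars the 95% Poisson interval. Upp1 lines of epiblast and extraembryonic ectoderm cross between E5.0 and E5.25, Tdh is low from E5.0 in epiblast and not in endoderm, and epiblast Gcat stays between 36.8 and 59.7 CPM.

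Upp1 in epiblast was highest at E3.5, in the inner cells that also had endoderm markers, and was lower at each stage after E4.75. In order of stage, the first 3 libraries gave 711 CPM [654, 773] in 44 cells, 246 CPM [229.8, 263] in 299 cells and 291 CPM [285, 298] in 851 cells. The last 3 gave 114 CPM [110.2, 117] in 1915 cells, 40.1 CPM [37.8, 42.4] in 1252 cells and 14.0 CPM [12.3, 16.0] in 2422 cells. No neighbouring stages had overlapping intervals. From E4.75 on, each library was lower than the one before it by 2.57-fold [2.47, 2.66], 2.83-fold [2.66, 3.02] and 2.85-fold [2.48, 3.29].

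The contrast of E5.5 with E4.5, the stages that shared the filter, gave Upp1 17.5-fold lower [15.1, 20.3] at E5.5, or -3.41 as the log2 ratio of CPM + 10. Upp1 was also among the genes lower at E5.25 than at E4.75, stages both dissected and described without a filter, at 7.27-fold [6.84, 7.73]. The class was in different clusters at the stages of the first contrast, with 297 of 299 cells in cluster 18 at E4.5 and 2101 of 2422 in cluster 1 at E5.5. Among all genes with at least 10 CPM in either group, 10.8% were at least 2-fold lower on the CPM + 10 scale in the first contrast and 3.03% in the second. The gene was chosen with such contrasts known, so nothing is read from its place among them.

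At E4.75 and E5.0 epiblast Upp1 differed between clusters, although it took no part in making them. At E4.75, 805 of the 851 cells were in cluster 9, with 296 CPM [289, 303], while 16 cells in cluster 3 had 63.9 CPM [44.3, 89.3]. At E5.0 the reverse split held: 1057 cells in cluster 3 had 105 CPM [100.5, 109] and 786 cells in cluster 5 had 121 CPM [116, 127], while 29 cells still in cluster 9 had 308 CPM [265, 357]. These 29 cells shared no barcode with another library. A further 41 cells of E5.0 in cluster 1, the cluster that held 2101 of the 2422 epiblast cells at E5.5, had 41.0 CPM [26.8, 60.1]. Other small groups had levels nearer to their own library than to the stage they clustered with. They were 20 cells of E4.75 in cluster 5, with 260.0 CPM [221, 304], and, at E5.5, 95 cells in cluster 3 with 18.1 CPM [10.9, 28.3] and 221 cells in cluster 5 with 8.74 CPM [5.26, 13.6]. The 105 cells of E5.25 in cluster 1 had 29.7 CPM [22.3, 38.9], between the levels of E5.25 and E5.5. Upp1 thus followed the cluster in some of these groups and the library in others.

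In endoderm, the primitive and visceral endoderm that covers the epiblast, Upp1 was lower than in epiblast of the same library at every stage measured. From E4.5 to E5.5, in order of stage, it was 54.8 CPM [48.7, 61.5], 23.0 CPM [21.4, 24.8], 19.0 CPM [17.4, 20.7], 9.94 CPM [8.56, 11.5] and 8.63 CPM [6.75, 10.9]. The intervals of the last 2 stages overlapped. The clusters that made up endoderm changed as well, from cluster 16 at E4.5 (419 of 421 cells) and cluster 10 at E4.75 (783 of 860) to clusters 2, 4 and 13 at E5.5. Epiblast was 12.6-fold higher [11.7, 13.7] than endoderm at E4.75 and 1.63-fold higher [1.25, 2.15] at E5.5. Parietal endoderm, which lies along the trophoblast and secretes basement membrane, had 36.5, 44.1, 37.2 and 26.3 CPM of Upp1 from E4.75 to E5.5. It was above the other endoderm in each of these 4 libraries, by 1.58-fold [1.38, 1.82], 2.32-fold [2.01, 2.68], 3.74-fold [2.95, 4.73] and 3.05-fold [2.05, 4.498].

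In trophoblast Upp1 was low until E4.75 and then higher at each later stage in extraembryonic ectoderm, the reverse of its order in epiblast. Blastocyst trophectoderm of the first 3 stages had 8.44 CPM [3.39, 17.4], 9.21 CPM [6.17, 13.2] and 14.8 CPM [8.11, 24.9], with overlapping intervals. At E3.5 this was 84.3-fold [40.7, 211] below the inner cells of the same library. Extraembryonic ectoderm, from E4.75 to E5.5 in order, had 11.2 CPM [9.77, 12.8] in 408 cells, 74.1 CPM [70.2, 78.1] in 645 cells, 110.4 CPM [106, 115] in 686 cells and 171 CPM [162, 179] in 1191 cells. Upp1 was 15.2-fold higher [13.2, 17.6] at E5.5 than at E4.75, a contrast in which 1.95% of genes were at least 2-fold higher. Gene and contrast were chosen with earlier results known, so nothing is read from its place among them. Trophectoderm markers of the class went the other way from Upp1. At E4.75, 9 of 11 were at 2-fold, with a summed level of 3895 CPM, and at E5.5, 2 of 11, with 1464 CPM. The class's own markers were at 9 of 10 at both stages. The part of the trophectoderm markers in the result was not tested.

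The change between E4.75 and E5.0 coincided with a change of cluster. Of the 408 cells at E4.75, 393 were in cluster 15, led by Hand1, Cald1 and Satb1 beside the extraembryonic ectoderm genes Elf5 and Ddah1, and had 10.6 CPM [9.23, 12.2]. At E5.0, 617 of 645 were in cluster 0, led by Elf5, and had 77.3 CPM [73.2, 81.5]. The 28 cells of cluster 15 at E5.0 had 10.3 CPM [4.71, 19.6], and the 15 cells of cluster 0 at E4.75 had 45.2 CPM [25.3, 74.5]. The counting intervals of these clusters did not overlap within either of the 2 libraries, and those of cluster 15 overlapped between the stages. At E4.75 the level of cluster 0 rested on 15 Upp1 UMIs. Single cells of the class at that stage had up to 23, a spread between cells that the intervals do not cover. Within cluster 0 the level still differed by stage, at 77.3, 110.7 and 171 CPM from E5.0 to E5.5.

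**Figure D2:**
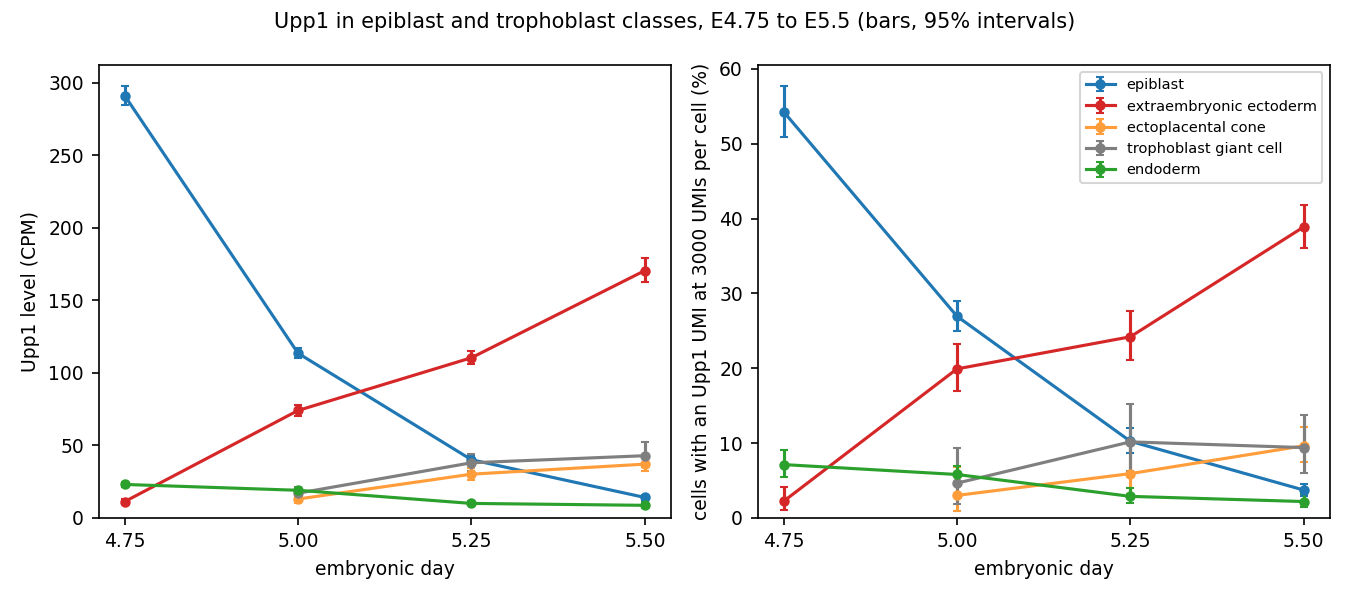
Upp1 from E4.75 to E5.5 in epiblast, endoderm and 3 trophoblast classes, as CPM (left) and as the percentage of cells with an Upp1 UMI after thinning each cell to 3000 UMIs (right); bars are exact 95% intervals. Epiblast goes from 291 to 14.0 CPM while extraembryonic ectoderm goes from 11.2 to 171 CPM.

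Set against epiblast of the same library, extraembryonic ectoderm Upp1 was 26.0-fold lower [22.8, 29.9] at E4.75 and 1.53-fold lower [1.44, 1.63] at E5.0. It was 2.76-fold higher [2.57, 2.96] at E5.25 and 12.1-fold higher [10.6, 14.0] at E5.5. The log2 ratios of CPM + 10 were -3.83, -0.56, 1.27 and 2.91, so the sign changed between E5.0 and E5.25. At E4.75, 13.7% of genes were at least 2-fold lower in extraembryonic ectoderm than in epiblast and 9.61% higher. At E5.5 the shares were 10.1% lower and 5.46% higher. Upp1 and these contrasts were chosen with earlier results known, so nothing is read from its place among these genes. Scaling by the median of gene ratios in place of total UMIs left each sign as it was, with -0.35 at E5.0, the stage nearest to 0.

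The other trophoblast subtypes also had more Upp1 at E5.5 than at E5.0, at lower levels than extraembryonic ectoderm. Ectoplacental cone, the outer trophoblast that faces the uterus, had 13.0 CPM [9.90, 16.7], 30.1 CPM [26.0, 34.7] and 37.0 CPM [32.1, 42.6] from E5.0 to E5.5. Trophoblast giant cells, large polyploid cells at the maternal border, had 17.0 CPM [13.3, 21.4], 38.0 CPM [32.6, 44.0] and 42.9 CPM [34.8, 52.2]. At E5.5 extraembryonic ectoderm was 4.60-fold [3.97, 5.37] above ectoplacental cone and 3.98-fold [3.25, 4.93] above giant cells. Cone and giant cells were above epiblast at E5.5, by 2.64-fold [2.17, 3.20] and 3.05-fold [2.39, 3.87], and below it at E5.0, by 8.75-fold [6.78, 11.5] and 6.68-fold [5.28, 8.57]. Barcodes with too few genes to be kept as cells had 16.9, 31.8 and 43.5 CPM of Upp1 from E5.0 to E5.5. These levels, from 8, 20 and 1031 UMIs, were also higher at each later stage. Cone was below them at each stage, and giant cells were close to them at E5.0 and E5.5. The part of such RNA in the cone and giant cell values was not tested.

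The order of Upp1 levels at E5.5 was extraembryonic ectoderm, giant cells, ectoplacental cone, parietal endoderm at 26.3 CPM [19.1, 35.3], epiblast and endoderm. The intervals of giant cells and cone overlapped, as did those of cone and parietal endoderm. Barcodes of the same library under the minimum of 1500 genes, 18592 of them, had 43.5 CPM of Upp1, above the 14.0 CPM of the epiblast cells. At E4.75 such barcodes had 10.5 CPM, close to the 11.2 CPM of extraembryonic ectoderm.

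The share of cells with an Upp1 UMI followed the same course. With each cell thinned to 3000 UMIs and shallower cells left out, epiblast had 88.6%, 50.2%, 54.3%, 26.9%, 10.2% and 3.71% of cells with a UMI from E3.5 to E5.5. Extraembryonic ectoderm had 2.21%, 19.9%, 24.2% and 38.9% from E4.75 to E5.5. Endoderm, the class with the lowest CPM at E5.5, had 2.18% [1.45, 3.13] there, against 3.71% [2.97, 4.58] in epiblast; median depths before thinning were 4078 and 6122.5 UMIs. Left out as shallow at E5.5 were 159 epiblast, 44 extraembryonic ectoderm and 405 endoderm cells. Without thinning, 88.0% of epiblast cells had an Upp1 UMI at E4.5 and 8.92% at E5.5, and 60.5% of extraembryonic ectoderm cells at E5.5.

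Tdh was low in epiblast from E5.0 on, at most 21.0 CPM, while in endoderm it was at least 106 CPM at every stage measured. In epiblast of the first 3 stages it was 151 CPM [125, 181], 162 CPM [149, 176] and 111 CPM [107, 115]. At the last 3 it was 21.0 CPM [19.6, 22.5], 8.21 CPM [7.21, 9.30] and 10.9 CPM [9.37, 12.6]. Barcodes under the minimum of 1500 genes had 59.2, 36.6 and 40.2 CPM of Tdh at these last 3 stages, above epiblast of the same library. At the first 3 stages they had 15.3, 47.3 and 26.8 CPM, below epiblast. The part of such RNA in the epiblast values was not tested. The widest step between neighbouring stages was from E4.75 to E5.0, 5.28-fold lower [4.89, 5.71], where Upp1 was 2.57-fold lower. At E5.5 Tdh was 14.8-fold lower [12.5, 17.6] than at E4.5, or -3.04 as the log2 ratio of CPM + 10.

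By cluster, the 29 cells of E5.0 in cluster 9 had 48.2 CPM [32.0, 69.6] of Tdh, against 21.5 CPM [19.6, 23.5] in cluster 3. The 16 cells of E4.75 in cluster 3 had 43.2 CPM [27.4, 64.9], against 113 CPM [109, 117] in cluster 9. Both small groups lay between these larger ones.

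From E4.5 to E5.5, endoderm Tdh was in turn 106 CPM [97.4, 115], 129.9 CPM [126, 134], 114 CPM [109.7, 118], 117 CPM [112, 122] and 109 CPM [102, 117]. The levels of E5.5 and E4.5 differed 1.03-fold [0.928, 1.15], an interval that includes 1, but this rested on cluster 13, which also had epiblast markers. Without that cluster, a setting chosen after seeing the data, E5.5 had 134 CPM [125, 144], above E4.5 with no overlap of the intervals. Parietal endoderm had 125, 124, 160.4 and 92.7 CPM from E4.75 to E5.5. Over the same 5 stages the endoderm over epiblast ratio of Tdh was 0.656 [0.582, 0.739], 1.17 [1.12, 1.23], 5.42 [5.02, 5.86], 14.2 [12.5, 16.3] and 10.05 [8.56, 11.8]. At E5.5, 16.3% of genes were at least 2-fold higher in endoderm than in epiblast and 4.15% lower. Tdh was chosen with earlier results known, so nothing is read from its place among them.

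Tdh was low in trophoblast, with 0 to 57 UMIs per class and stage. No UMI was counted among 829725 in E3.5 trophectoderm, which allows up to 3.62 CPM with 0 taken as 3 counts, so the inner cells of that library were at least 41.9-fold higher by that floor over the class. The exact 95% interval of the ratio, which is wider, began at 33.5-fold. Trophectoderm had 5.40 CPM [3.15, 8.65] at E4.5. Extraembryonic ectoderm had 2.85 CPM [2.16, 3.69] at E4.75 and then 1.42, 0.496 and 0.942 CPM. Ectoplacental cone and giant cells had between 0.311 and 3.35 CPM. At E5.5 the epiblast level was 11.6-fold [5.96, 25.7] above extraembryonic ectoderm of the same library. At that stage the order was endoderm, parietal endoderm at 92.7 CPM [78.7, 109], epiblast, giant cells, ectoplacental cone and extraembryonic ectoderm, and only the step to epiblast and the step from epiblast to giant cells had intervals that did not overlap. Without cluster 13 endoderm also stood apart from parietal endoderm.

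The share of cells with a Tdh UMI at 3000 UMIs per cell was 36.4%, 33.4%, 26.4%, 6.21%, 2.32% and 3.23% in epiblast from E3.5 to E5.5. In endoderm it was 25.9%, 30.9%, 27.3%, 25.6% and 26.9% from E4.5 on. In extraembryonic ectoderm, which had the lowest Tdh level at E5.5, it was 0.349% [0.0951, 0.890] there, with a median depth before thinning of 6520 UMIs. In epiblast at E4.75 the share of cells with a UMI of both Upp1 and Tdh was 14.7%, and the product of the separate shares was 14.4%. Across epiblast stages the shares with both were 29.5%, 17.4%, 14.7%, 2.19%, 0.320% and 0.221%, against products of 32.2%, 16.8%, 14.4%, 1.67%, 0.237% and 0.120%.

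Gcat had counts in every class, and its epiblast level at E5.5 was close to that at E4.5. In epiblast it was 49.2 CPM [35.0, 67.2], 51.6 CPM [44.3, 59.7], 59.7 CPM [56.8, 62.7], 44.6 CPM [42.5, 46.7], 36.8 CPM [34.7, 39.1] and 44.4 CPM [41.3, 47.7] from E3.5 to E5.5. At E5.5 it was 1.16-fold lower [0.981, 1.37] than at E4.5, an interval that includes 1, and the log2 ratio of CPM + 10 was -0.18 where the median of all genes was 0.01. Scaling by the median of gene ratios shifts this contrast by 0.17 and gave Gcat -0.04.

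Endoderm had the highest Gcat levels at each stage from E4.5. In order of stage they were 95.5 CPM [87.3, 104], 118 CPM [114, 122], 150.1 CPM [146, 155], 172 CPM [166, 178] and 149 CPM [141, 157]. E5.5 was 1.56-fold higher [1.40, 1.73] than E4.5, with the change of clusters given above for Upp1. Parietal endoderm had less Gcat than the other endoderm in each of 4 libraries, by 2.47-fold [2.22, 2.76], 3.65-fold [3.23, 4.14], 4.30-fold [3.61, 5.17] and 3.41-fold [2.69, 4.38], while its Tdh was 0.847 to 1.37 times that of the other endoderm. The Tdh ratio had no constant direction: parietal endoderm was 1.37-fold [1.25, 1.51] above the other endoderm at E5.25 and, without cluster 13, below it at E5.5.

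**Figure D3:**
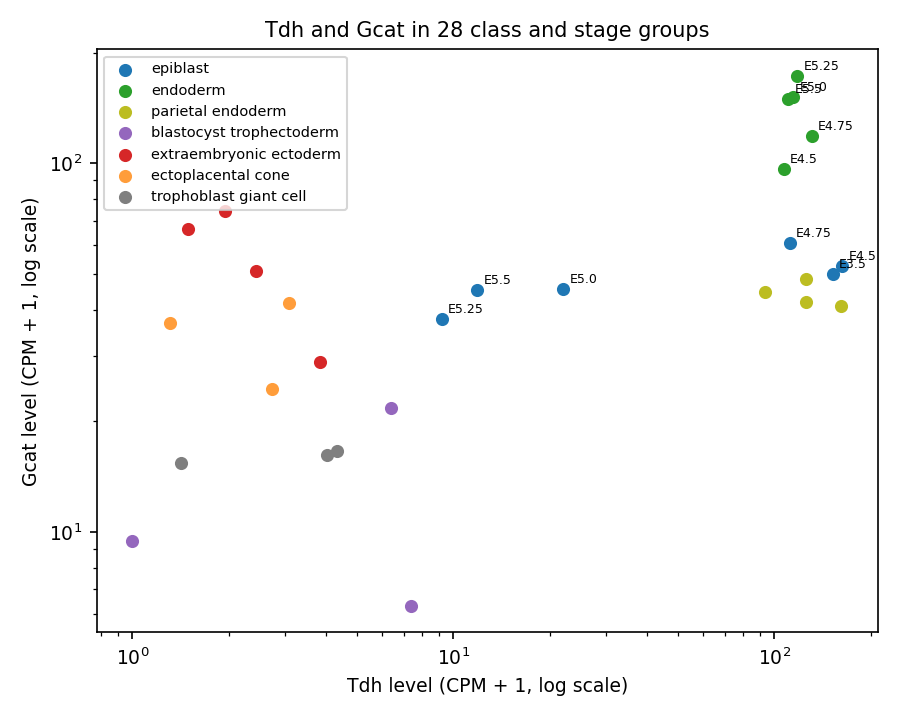
Tdh level against Gcat level (CPM + 1, both axes logarithmic) in the 28 class and stage groups of at least 30 cells; stages are written beside epiblast and endoderm points. Epiblast moves left from E4.75 to E5.0 with little change in Gcat, parietal endoderm lies below endoderm at 0.847 to 1.37 times its Tdh, and trophoblast lies at the left.

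Within trophoblast, Gcat in extraembryonic ectoderm was 27.9 CPM [25.7, 30.3], 50.0 CPM [46.8, 53.3], 65.3 CPM [61.8, 68.9] and 73.3 CPM [68.0, 78.9] from E4.75 on. It was 2.63-fold higher [2.35, 2.94] at E5.5 than at E4.75. The clusters changed from 15 to 0 between the first 2 of these stages, as for Upp1. The trophectoderm markers of the class were lower at E5.5 than at E4.75, the other way from Gcat. Barcodes with too few genes to be kept as cells had 13.4, 57.1, 52.5 and 70.4 CPM of Gcat from E4.75 to E5.5. These levels, from 14, 27, 33 and 1668 UMIs, were also higher at E5.5 than at E4.75. Extraembryonic ectoderm was below them at E5.0 and above them at the other stages. The part of such RNA in its Gcat values was not tested. Ectoplacental cone had 23.4, 35.9 and 40.8 CPM from E5.0 to E5.5, and giant cells had 15.6, 14.4 and 15.2 CPM with overlapping intervals. At E5.5 the order was endoderm, extraembryonic ectoderm, epiblast, parietal endoderm at 43.7 CPM [34.2, 54.9], ectoplacental cone at 40.8 CPM [35.6, 46.6] and giant cells. The intervals of epiblast, parietal endoderm and cone overlapped.

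The number of Gcat UMIs per Tdh UMI, a ratio read only between groups, differed between classes. In epiblast of the first 3 stages it was 0.325 [0.220, 0.470], 0.319 [0.268, 0.378] and 0.539 [0.507, 0.573]. In epiblast of the last 3 it was 2.13 [1.96, 2.31], 4.49 [3.91, 5.17] and 4.08 [3.46, 4.82]. In endoderm the ratio was between 0.901 at E4.5 and 1.47 at E5.25. In parietal endoderm it was between 0.249 at E5.25 and 0.471 at E5.5. In extraembryonic ectoderm it was 77.8 [40.7, 171] at E5.5, where 9 Tdh UMIs were counted.

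Among endoderm clusters at E5.5, cluster 2 (led by Apoc2, Ttr and Cubn, genes of lipid and nutrient transport) had 172 CPM [158, 186] of Tdh, 200.2 CPM [186, 216] of Gcat and 4.03 CPM [2.20, 6.76] of Upp1 in 733 cells. Cluster 4, whose leading genes included Lhx1, a transcription factor of the anterior visceral endoderm, had 72.7 CPM [61.6, 85.2] of Tdh, 149.7 CPM [134, 167] of Gcat and 11.96 CPM [7.74, 17.7] of Upp1 in 421 cells. Tdh was also higher in cluster 2 than in cluster 4 at E5.0, at 132 CPM [124, 140.1] and 94.9 CPM [89.4, 100.6], and at E5.25, at 140.0 CPM [132, 148] and 81.1 CPM [74.8, 87.9]. Cluster 13, 529 cells at E5.5 with an epiblast marker score of 0.855 beside an endoderm score of 1.920, had 58.5 CPM of Tdh and 79.2 CPM of Gcat. Without cluster 13 endoderm at E5.5 had 134 CPM [125, 144] of Tdh, 182 CPM [171, 194] of Gcat and 6.93 CPM [4.93, 9.48] of Upp1.

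**Figure D4:**
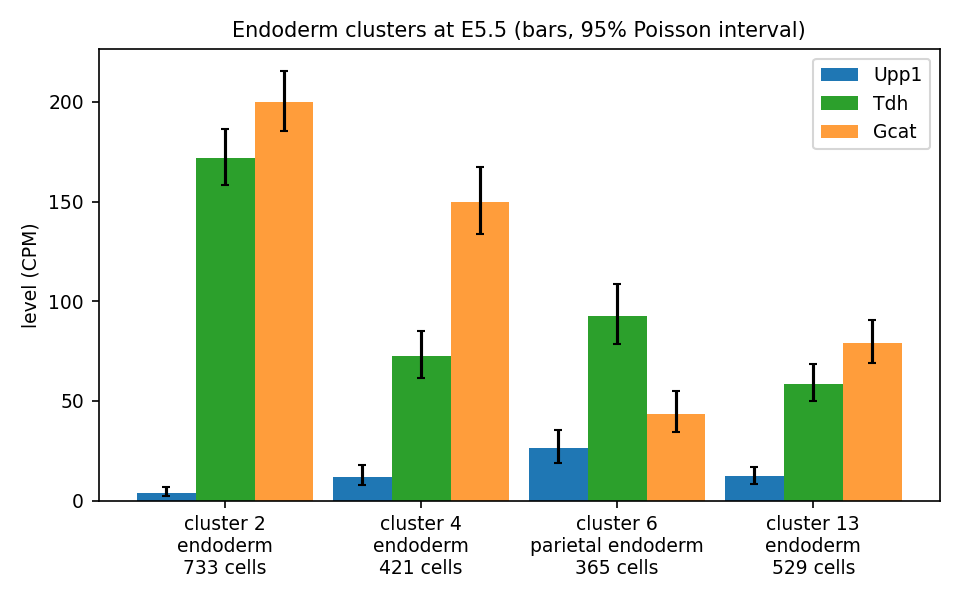
Levels (CPM) of Upp1, Tdh and Gcat in the 4 endoderm clusters with at least 30 cells at E5.5; bars start at 0 and error bars are 95% Poisson intervals. Tdh and Gcat are highest in cluster 2, at 172 and 200.2 CPM, and Gcat is lowest in the parietal cluster 6.

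Around these genes, 60 genes of uridine, pyrimidine, threonine, glycine, serine and S-adenosylmethionine metabolism were followed in 7 lists, 59 of them in the count tables. In epiblast 40 had at least 10 CPM at E4.5 or E5.5. Of these, 2 were at least 2-fold higher at E5.5 (Cmpk1 and Dut) and 4 at least 2-fold lower (Upp1, Tdh, Slc28a1 and Shmt2), against 6.32% higher and 10.8% lower among all genes. The median log2 ratio of the 40 was 0.13, and that of all genes 0.01. Slc28a1, a concentrative carrier of pyrimidine nucleosides such as uridine, had 35.4 CPM at the earlier stage and 3.81 CPM at the later one. Shmt2, the mitochondrial enzyme that interconverts serine and glycine, was 116 and 50.5 CPM. Dut, which removes dUTP, went from 329 to 1238 CPM, and Cmpk1, a pyrimidine nucleotide kinase, was 31.6 and 74.7 CPM. Between E4.75 and E5.25, 1 of 40 genes was at least 2-fold higher (Mthfd2, 0.624% of all genes) and 2 were lower (Upp1 and Tdh, against 3.03% of all genes). The lists include Upp1, Tdh and Gcat, which were chosen with earlier results known. Counts that hold them, here and in the other classes, are therefore not read against the shares of all genes.

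By list, uridine and pyrimidine salvage or breakdown had 1 gene higher and 1 lower of 6 measured in the E5.5 over E4.5 contrast of epiblast, and pyrimidine synthesis 1 higher and 0 lower of 10. Nucleoside transport had 0 higher and 1 lower of 3, threonine breakdown 0 and 1 of 2, and glycine cleavage and one-carbon metabolism 0 and 1 of 14. Serine synthesis (3 measured) and S-adenosylmethionine (4 measured) had 0 in either direction. Gldc, the glycine-binding subunit of the glycine cleavage system downstream of Gcat, was 212 and 232 CPM in epiblast.

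In endoderm, where Tdh was 106 and 109 CPM, 6 of 40 measured pathway genes were at least 2-fold higher at E5.5 than at E4.5 (Dctd, Dpyd, Dut, Gldc, Mat2a and Mat2b) and 2 lower (Upp1 and Psat1), against 10.0% and 6.71% of all genes. Their median log2 ratio was 0.33, and that of all genes 0.19. Gldc went from 265 to 616 CPM. Between E4.75 and E5.25 the counts were 1 higher (Amt, another glycine cleavage gene, 41.8 and 109.7 CPM) and 0 lower of 42, against 1.64% and 0.946% of all genes. In extraembryonic ectoderm, 4 of 38 were at least 2-fold higher at E5.5 than at E4.75 (Upp1, Gcat, Amt and Dut) and 1 lower (Psat1, of serine synthesis, 634 and 185 CPM), against 1.95% and 4.752% of all genes. Upp1 and Gcat in this count are chosen members, and Amt and Dut are not. Upp2, the other uridine phosphorylase gene, had at most 5.13 CPM in any group.

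Genes with levels most like each member were ranked by Pearson's r of log2 (CPM + 10) over the 28 groups, among 6428 genes. These groups share libraries, depth and class membership, so r is a description. For Upp1 the highest were Tm7sf3 (0.77), Pwwp3a (0.77), Sox2 (0.76), Nfu1 (0.75) and Stk31 (0.72). For Tdh they were Pmepa1 (0.94), Dcbld1, Trim44, Smg6 and Gja1 (0.93 each). For Gcat they were Blm, Adk, Zfp229 and Gpc4 (0.89 each) and Apoe (0.88). Between members r was 0.61 for Tdh and Gcat, 0.25 for Upp1 and Tdh and 0.16 for Upp1 and Gcat.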

How the data were processed

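The authors deposited raw UMI counts for each gene in each barcode, with no normalisation. Per the file headers, the matrices were made with Cell Ranger 7.1.0. Genome builds mm10, GRCm38 and hg38 appear in the submitters' processing notes, with no role given for hg38, and with annotation and alignment settings not given in the sources used here. Stage was taken from the labels of the 6 libraries.

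Barcodes with at least 1500 genes and at most 15% mitochondrial UMIs were kept (21856). The 1036 highest Scrublet scores (0.8% of cells per 1000 cells of a library, at most 8%) were removed. Counts per 10000 were log-transformed, and 2000 variable genes without the 3 genes and their pathway lists, 30 components, 15 neighbours and Leiden resolution 1 (scanpy 1.11.5, leidenalg 0.10.2) gave 24 clusters. Each took the class with the highest of 12 marker scores, with at least 3 markers at 2-fold; 4 clusters with a second, unrelated score above 0.45 of the first were left out. Classes of at least 30 cells were summed to CPM, so the precision follows the UMIs behind each value. Folds are plain CPM ratios with exact conditional binomial 95% intervals; log2 ratios use CPM + 10, which understates folds of low genes. Only the 2-fold calls and the fold intervals were tried on simulated counts, drawn from the summed E4.5 epiblast profile with counting error alone. Filtering, doublet removal, clustering and class naming were not tried in this way. With 1 library per stage no test between stages was made.

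The members, lists and contrasts were chosen with earlier results of these data known. Named pathway genes were those with at least 50 CPM in a group and a 2-fold difference in epiblast between E4.5 and E5.5; Slc28a1 and the pathway genes named in other contrasts or for comparison, and the clusters described, were chosen after their values were seen. The 5 genes most like each member followed a fixed rule on r that leaves out unnamed gene models. Alternatives covered cell filters, doublets, clustering, pseudocount, scaling, cell weight, depth and stage.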

Additional observations from a re-analysis of the deposited data

Results flagged for a closer look

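Upp1 had log2 ratios of opposite sign in different classes for E5.5 over E4.75. They were -3.65 in epiblast, 3.09 in extraembryonic ectoderm and -0.83 in endoderm. Gcat also differed in sign, at -0.36 in epiblast, 1.14 in extraembryonic ectoderm and 0.31 in endoderm. With 1 library per stage the difference between classes was not tested. The extraembryonic ectoderm cells came mainly from cluster 15 at E4.75 and from cluster 0 at E5.5.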

How the results depend on the processing

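Of 124 values under alternatives, 89 counted as the same and 35 as moved. A log2 ratio counted as moved when it changed by more than its counting interval. Numbers of pathway genes have no such interval and were judged by a fixed ratio instead. Of the log2 ratios, 0 changed direction. The cause of a move was not tested. With a pseudocount of 1, the epiblast log2 ratios of E5.5 over E4.5 were -4.04 for Upp1 and -3.77 for Tdh, and 6 pathway genes in place of 2 were at least 2-fold higher. In the same setting Upp1 over epiblast was -4.58, 1.44 and 3.51 in extraembryonic ectoderm at E4.75, E5.25 and E5.5, and at E5.5 1.34 in ectoplacental cone and 1.54 in giant cells. Thinning cells to 3000 UMIs gave Upp1 -3.56 in epiblast, and -4.12, -0.74 and 3.11 in extraembryonic ectoderm over epiblast at E4.75, E5.0 and E5.5. E4.75 in place of E4.5 gave -3.65 for Upp1 and -2.53 for Tdh. For extraembryonic ectoderm over epiblast at the 4 stages from E4.75 on, clustering each library alone gave -3.57, -0.48, 1.12 and 3.04 (1.16 in ectoplacental cone at E5.5). Median-of-ratios scaling gave -3.62, -0.35, 1.44 and 3.05. A minimum of 2500 genes gave -3.98, -0.46 and 1.36 at the first 3 stages and 1.27 in ectoplacental cone at E5.5. A minimum of 1000 genes gave -3.96 at E4.75 and 2.68 at E5.5, and keeping mixed clusters, chosen after seeing the data, gave -3.58 and 2.67. At E4.75 a mitochondrial limit of 10% gave -3.98, no doublet removal -3.98 and Leiden resolution 2.0 -3.60. With members kept for clustering the E5.5 value was 2.78. Leaving out barcodes shared by libraries, also chosen then, was among the settings with no such move. The cells of a class changed with the clustering as well. Extraembryonic ectoderm at E4.75 had 408 cells as reported, 214 at Leiden resolution 2.0 and 227 with each library clustered alone. Ectoplacental cone at E5.5 had 710, 1551 and 1609 cells in the same settings.

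No paired analysis was possible because each stage was 1 library. Depth limits Tdh in trophoblast, where 0 to 57 UMIs were counted per class and stage. Cells of E5.5 were the shallowest and the most often left out as mixed, and the stages differ in dam age, collection and filtering, which cannot be told apart from stage.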

Other observations

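Of the other pathway genes, chosen after their values were seen, Slc28a3, a concentrative nucleoside carrier, had 137 CPM in E3.5 trophectoderm and 56.8 CPM in the inner cells of that library. At E4.75 it had 112 CPM in trophectoderm and 6.79 CPM in extraembryonic ectoderm of the same library. Cda, the cytidine deaminase that yields uridine, had 49.1 to 66.9 CPM in trophoblast giant cells and 10.8 to 15.6 CPM in ectoplacental cone. Dpyd, which starts the breakdown of uracil, had 24.9 CPM in endoderm at E5.5 and 0.838 CPM in extraembryonic ectoderm, the class with the most Upp1. A group of 10 epiblast cells of E4.75 in cluster 22 had 525.2 CPM [378, 709.9] of Upp1, above the 291 CPM of all epiblast cells of that library. Their Tdh, 275 CPM against 111 CPM, and Gcat, 163 CPM against 59.7 CPM, were higher as well. The group was under the minimum of 30 cells and held 79977 UMIs, in a cluster with 0.424 of the median depth of its libraries. Upp1 was among the 10 leading genes of cluster 22.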
